A study of Mus musculus with 24 samples.

Results

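This is the comparison of a high-fat (HF) with a low-fat (LF) diet in the male offspring of vitamin D-deficient (VDD) mothers. It rests on the 3 VDD LF and the 3 VDD HF male libraries of RNA-seq, 6 of the 24 libraries of the series, and on the table in which these 6 were deposited together. The mothers, C57BL/6JRJ mice, had received the AIN-93G diet without vitamin D3 (0 IU/g) before and during gestation, while control (CTRL) mothers had received 1 IU/g. All mothers were fed the control diet after delivery, so the offspring of both kinds of mother were weaned from mothers fed vitamin D3. At 6 weeks of age the sons were given either the LF diet (AIN-93M) or the HF diet (45% of energy from fat) for 8 weeks. RNA was taken from whole retroperitoneal fat after an overnight fast and death by cervical dislocation, 1 library per mouse. Both groups compared here therefore share the maternal deficiency, and differ in the diet of the sons. Which litter each son came from was not given in the sources used here, so the spread between mice may hold litter differences. The 3 LF mice carry the numbers 2078, 2310 and 2302 and the 3 HF mice 2298, 2308 and 2307, and per-mouse values are given in this order.

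Retroperitoneal fat is a visceral white depot. When it stores more fat its adipocytes enlarge, secrete more leptin and rebuild the collagen around them, while macrophages gather around dying adipocytes and take up lipid. White adipocytes also make new fatty acids, release stored ones by lipolysis, respond to insulin and glucocorticoids, and secrete adiponectin and the complement protease adipsin. In bulk tissue a lower level of an mRNA can mean fewer cells of a type or less RNA per cell, and these cannot be told apart.

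The 6 libraries held 13720497 to 17275511 reads on genes, and the 10 most abundant genes took 14.1% to 26.2% of them. The unit is the normalised read, a read count divided by the size factor of the library, analysed as log2(normalised reads + 1); 15965 genes reached 10 normalised reads in at least 3 libraries and were tested with limma. Fold changes are HF over LF on that log2 scale, given with the standard error of the fit (n = 3 per group). At an adjusted p under 0.01 with a fold change above 1.5 or below 0.66, 12 genes were called, 5 up and 7 down, 0.0752% of those tested. At an adjusted p under 0.05 with the same fold, 842 genes passed (5.27%), 478 up (2.99%) and 364 down (2.28%). The verbs rose and fell are kept for genes past this wider threshold. Counts for gene lists are to be read beside the shares of all genes, 2.99% up and 2.28% down. A short list with 1 or 2 genes past the threshold can lie near them, and such counts are not read as results about the list. In all 842 the 3 HF values lay on 1 side of the 3 LF values, as they did in 5340 genes in all (33.4%). The median log2 fold change over all genes was 0.01. The word renal stands in the deposited column names of 1 mouse per group, 2302 and 2307, with no explanation in the sources used here. With this word as a covariate, an alternative chosen after seeing the data, the 2 counts were 0 and 119. With limma-voom the 2 counts were 0 and 745. Both counts depended on single mice. Without LF mouse 2310 the 2 thresholds gave 264 and 2535 genes, without 2078 they gave 3 and 126, and without 2302 they gave 0 and 163. Without HF mouse 2308 the counts were 0 and 6, and without 2298 or without 2307 they were 0 and 0. The log2 fold changes of the 842 genes kept their sign in the fits that left out a mouse. This follows from groups that do not overlap, and is not read as support.

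Skeletal muscle mRNA was strong in 3 of the 6 libraries. The 32 genes of the muscle list took 9.48% of the reads in LF mouse 2310, 0.476% in 2302 and 0.00737% in 2078, and 2.54%, 0.0183% and 3.91% in the HF mice. Acta1, the skeletal alpha-actin, had 212, 178572 and 6585 normalised reads in the LF males and 43993, 1003 and 53545 in the HF males. High and low libraries thus stood in both groups, and 0 of the 32 genes passed either threshold or had groups that did not overlap. Their median log2 fold change was 1.30 in the plain fit and -0.08 with the muscle level of each library as a covariate. That level is the mean of these same 32 genes, so a median near 0 is built into the second fit and is not a result. Ckm (creatine kinase) differed by 1.79 ± 4.47, Myh4 (the fast IIb myosin heavy chain) by 2.83 ± 4.96, Myh2 by 3.27 ± 3.53, Mybpc1 by 3.49 ± 4.21 and Myh7 by 2.78 ± 3.93 on the log2 scale, each with an error above the difference. With the covariate the wider threshold gave 868 genes, and each of the 842 genes kept its direction.

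**Figure D1:**
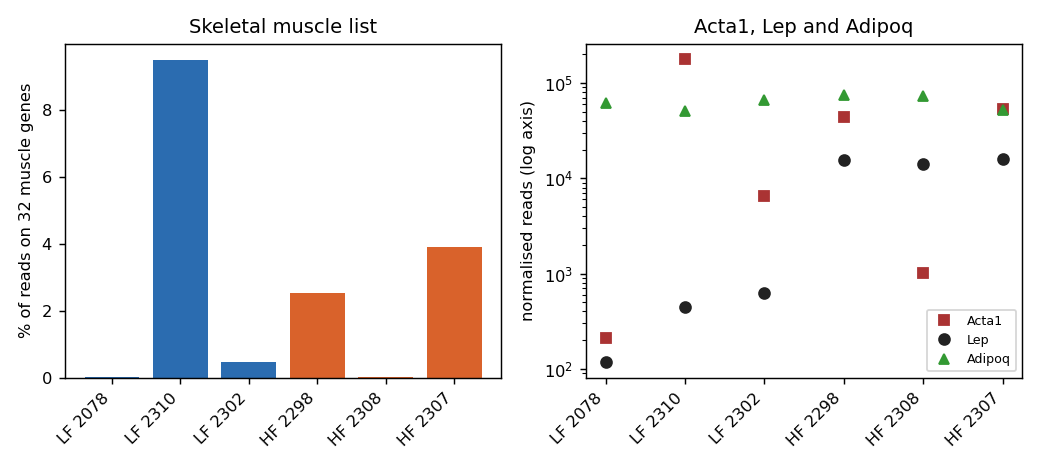
Left, percent of all reads on genes that fell on the 32 skeletal muscle genes, by library, with LF bars in blue and HF bars in orange. Right, normalised reads of Acta1, Lep and Adipoq in the same libraries on a log axis; Acta1 runs from 212 to 178572 and is high and low on both diets, Lep is at 630 or less in the LF mice and at 14295 or more in the HF mice, and Adipoq stays between 50483 and 74258.

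The tissue label was checked against markers. All 20 adipocyte genes of the list were tested, and Adipoq (adiponectin) had 61882, 50483 and 67132 normalised reads in the LF males and 74258, 73416 and 52484 in the HF males. Kidney and adrenal lie beside this depot: Umod and Slc12a1 of the kidney were at 0 in all 6 libraries, Kap reached 7.47 normalised reads at most, and 4 of the 14 kidney genes passed the filter. Of these, Cyp2e1, which adipocytes also make, and Ttc36 fell, Napsa differed by 0.61 ± 0.48, and the list's median was -0.83. Of 12 adrenal genes 2 were tested and 0 passed, with 0.45 ± 0.36 for Mc2r, the ACTH receptor, which mouse adipocytes also carry, and -0.54 ± 1.00 for Star. The adrenal enzyme genes Cyp11a1 and Cyp11b1 did not pass the filter, with 3.97 to 43.8 and 0 to 11.8 normalised reads over the 6 libraries. The 12 epididymis and testis genes together gave 0 to 5.16 normalised reads. The mesothelial list, whose cells cover the fat, had 13 of 14 genes higher and 0 past the threshold, with a summed level of 417 to 18917 normalised reads in the LF males and 1197 to 8174 in the HF males; Krt19 differed by 1.34 ± 1.40, Nkain4 by 1.24 ± 1.40 and Krt8 by 1.18 ± 1.59. The part of these tissues in the results was not tested beyond the muscle covariate.

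Of the 5 genes called up, the long noncoding RNA gene 1700047G03Rik showed the largest change of all genes tested. It had 6.39, 9.22 and 11.9 normalised reads in the LF males and 722, 499.8 and 784 in the HF males, a log2 fold change of 6.05 ± 0.30 (adjusted p = 0.0063). The other called gene on chromosome 15, Npr3, encodes the clearance receptor that removes natriuretic peptides from the circulation, and had 1355, 1362 and 2393 normalised reads in the LF males and 20001, 19804 and 17312 in the HF males (3.53 ± 0.25, adjusted p = 0.00742). These 2 genes are neighbours: in GENCODE M21 (GRCm38) Npr3 lies at chr15:11839896-11907287 on the minus strand and 1700047G03Rik at chr15:11964276-11970086 on the plus strand, so they point away from each other with 56989 bases between their starts. Gm5144, looked up because of its position, overlaps the start of Npr3 on the opposite strand (chr15:11906519-11907464) and also rose, from 12.8, 9.2 and 15.9 to 96.2, 62.8 and 66.5 normalised reads (2.49 ± 0.33, adjusted p = 0.0212). Whether the counting used strand was not given in the sources used here, so the reads of Npr3 and Gm5144 may not be fully apart.

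The 250 bases before the RefSeq starts of these 2 genes (GRCm38.p6), shown because they carry the largest rise and its called neighbour, are written 5′ to 3′ on the strand of the gene. The Npr3 window is chr15:11907372-11907621 on the minus strand and the 1700047G03Rik window chr15:11966812-11967061 on the plus strand, inside the longer GENCODE gene. Capitals mark CCAAT, the letters read by NF-Y, on either strand.
Npr3: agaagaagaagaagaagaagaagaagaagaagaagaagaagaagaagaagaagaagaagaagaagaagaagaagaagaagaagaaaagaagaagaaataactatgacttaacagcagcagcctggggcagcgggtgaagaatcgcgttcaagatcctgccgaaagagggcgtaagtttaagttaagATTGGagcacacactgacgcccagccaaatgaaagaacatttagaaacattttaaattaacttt
1700047G03Rik: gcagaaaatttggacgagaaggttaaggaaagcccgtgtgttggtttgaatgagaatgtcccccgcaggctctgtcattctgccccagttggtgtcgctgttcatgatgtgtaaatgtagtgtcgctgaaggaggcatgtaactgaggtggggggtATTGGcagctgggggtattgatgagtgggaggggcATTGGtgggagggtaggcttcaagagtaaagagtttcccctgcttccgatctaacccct
The Npr3 window holds 1 such match, starting 64 bases before the gene, and the 1700047G03Rik window holds 2, starting 94 and 59 bases before it. Over the 250-base windows of 27025 RefSeq promoters, 34.5% hold CCAAT on either strand, so the match is common. It was found in 36.1% of the promoters of genes tested, 36.4% of the 332 of genes that rose and 38.8% of the 258 of genes that fell. The upstream end of the Npr3 window is a run of gaa repeats.

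Bmp3, a ligand of the TGF-beta family made by adipocyte precursors and adipocytes, was called up as well. Its values were 102, 92.2 and 134 normalised reads in the LF males and 1226, 1272 and 1061 in the HF males (3.44 ± 0.18, adjusted p = 0.0063, chr5:98854415-98884396). Adamts5, a protease that cuts aggrecan and versican in the matrix, rose from 744, 886 and 928 to 4486, 4118 and 3669 (2.26 ± 0.14, adjusted p = 0.00742, chr16:85856173-85901828). Lpgat1, an acyltransferase of phospholipids, rose from 1269, 1377 and 1706 to 6460.1, 7383 and 6560.1 (2.24 ± 0.15, adjusted p = 0.00742, chr1:191717834-191784255). In these 5 genes the lowest HF male had at least 3 times the reads of the highest LF male.

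Of the 7 genes called down, Apoc3, the apolipoprotein that inhibits lipoprotein lipase, fell furthest, from 317, 201 and 341 normalised reads in the LF males to 14, 10.3 and 10.9 in the HF males (-4.47 ± 0.29, adjusted p = 0.00742, chr9:46232933-46235636). Drd1, a dopamine receptor coupled to cyclic AMP, fell from 167, 142 and 179 to 14.9, 9.46 and 11.8 (-3.66 ± 0.27, adjusted p = 0.00843, chr13:54051183-54055705). Lncbate1, a noncoding RNA named for its role in brown fat, dropped from 349, 348 and 431 to 54.1, 58.5 and 66.5 (-2.63 ± 0.18, adjusted p = 0.00742, chr8:108553252-108584595). These 3 were genes of low or middling level, while the other 4 were abundant in the LF males and spread little among them.

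Fbxo31, a substrate receptor of a ubiquitin ligase, had 3829, 4081 and 3889 normalised reads in the LF males and 943, 675 and 847 in the HF males (-2.27 ± 0.15, adjusted p = 0.00742, chr8:121549440-121578806). Gucd1 had 2937, 2911 and 2856 against 796, 609 and 785 (-2.00 ± 0.14, adjusted p = 0.00742, chr10:75351111-75517972). For Per1, a repressor of the circadian clock that glucocorticoids also induce, the values were 2072, 1770.4 and 2023 against 569, 641 and 565 (-1.72 ± 0.12, adjusted p = 0.00742, chr11:69095217-69109960), and for Sowahc they were 2722, 2963 and 3009.6 against 1042, 957 and 969 (-1.55 ± 0.11, adjusted p = 0.00742, chr10:59221953-59226434). The annotated span of Gucd1 also holds Upb1, and Fbxo31 lies inside the readthrough gene Gm20388, so reads in these spans could be assigned in more than 1 way. Each of the 12 called genes was called again in 1 of the 6 fits that left out a mouse, and all 12 were called in the fit over the 12 male libraries. With the muscle covariate 1 gene was called, and 0 were called with limma-voom or with the word renal as a covariate.

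**Figure D2:**
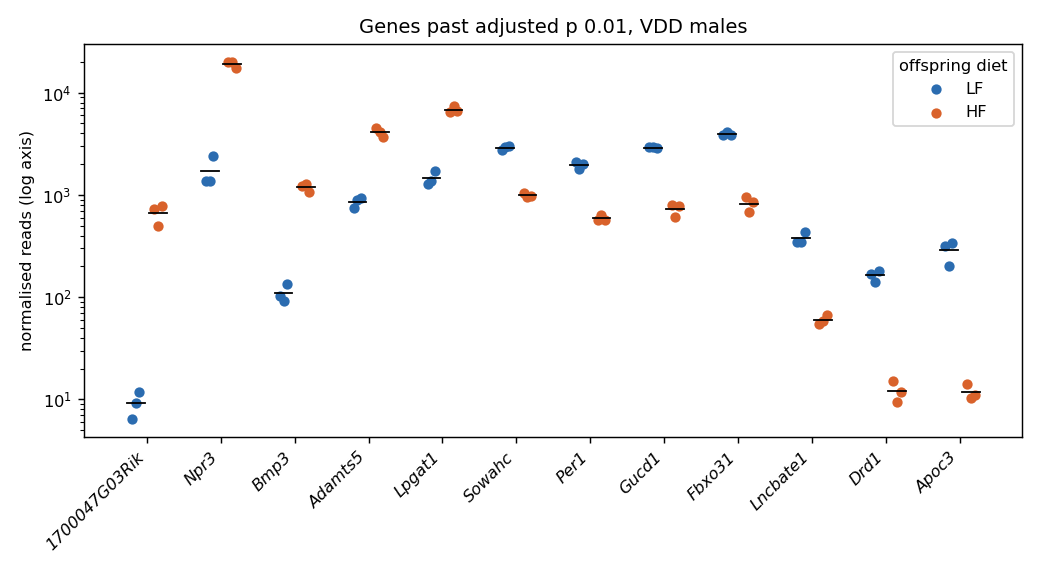
Normalised reads (log axis) of the 12 genes called at an adjusted p under 0.01, ordered by log2 fold change; each point is a mouse (LF blue, HF orange) and each line the mean of 3. In each gene the 2 groups lie apart, from 1700047G03Rik on the left, with means of 9.17 in LF and 669 in HF, to Apoc3 on the right, with 286 and 11.8.

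Among the 842 genes of the wider set the median fold was 2.97 for the genes that rose and 2.24 for those that fell. A log2 change over 2 was seen in 172 genes up and 79 down. Genes annotated as protein coding made up 415 of the 478 and 297 of the 364, and 28 and 26 were loci added by the authors' own transcript assembly. Summed over the genes of each set, the mean level went from 292367 to 871785 normalised reads for the genes that rose and from 1088610 to 384794 for those that fell.

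**Figure D3:**
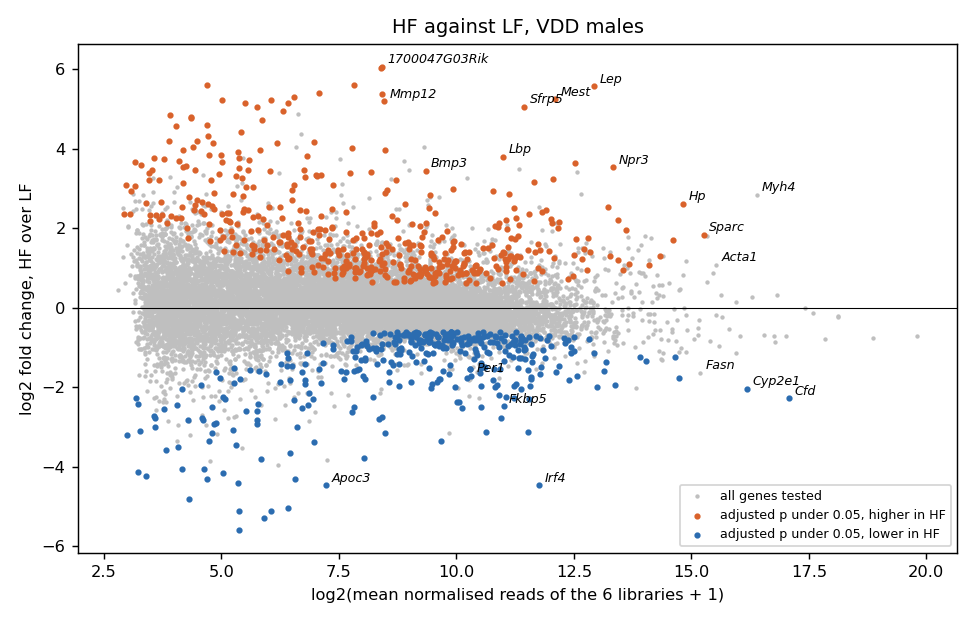
Each point is 1 of the 15965 genes tested: log2 of the mean normalised reads of the 6 libraries + 1 (x) against the log2 fold change of HF over LF (y), with the 478 genes up in orange and the 364 down in blue. Large rises are found at low levels and also at high ones (Lep, Mest, Npr3), Cfd has the largest loss of reads among the coloured genes, and the muscle genes Acta1 and Myh4 are grey in spite of their size.

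The largest rises after 1700047G03Rik were in Slc5a7, the choline transporter of cholinergic neurons, with 1.28, 21.9 and 18.9 normalised reads in the LF males and 561, 670.2 and 751 in the HF males (6.02 ± 0.88, adjusted p = 0.0236), and in Prr32, with 2.56, 8.07 and 21.8 against 481, 416 and 415 (5.60 ± 0.65). Mup-ps21, a pseudogene of the major urinary proteins, had 0 reads in each LF male and 43.9, 68.8 and 36.2 normalised reads in the HF males. This is at least 14.5-fold higher when 3 reads are put in each LF library. The paper's alignment kept only reads that matched a single place, so reads that fit Mup-ps21 and its many near-identical copies equally were left out. Tph2, the neuronal tryptophan hydroxylase, had 1.28, 6.92 and 5.95 against 89.6, 212 and 491 (5.40 ± 0.76). Genes this low in the LF males pass the filter only through the HF males, as did other genes named below, such as Il1rn and Dusp9. The p-values of such genes are not read as support. D430019H16Rik (5.38 ± 0.73), the noncoding Gm36827 (5.29 ± 0.97) and Unc79 (5.23 ± 0.76), a subunit of the sodium leak channel complex, rose by similar amounts.

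Among the largest falls was that of Acot3. It encodes a peroxisomal acyl-CoA thioesterase and had 152, 35.7 and 52.6 normalised reads in the LF males and 0, 1.72 and 0 in the HF males, 203 reads against 2, a ratio of 131 with an exact 95% counting interval of 35.7 to 1087, which covers counting error over the pooled reads and not the spread between mice. Irf4, a transcription factor that in adipocytes is induced by fasting and drives lipolysis genes, fell at a much higher level, from 5532, 5077 and 9167 to 179, 443 and 295 (-4.47 ± 0.38, adjusted p = 0.0105). Glt1d1 (-5.29 ± 0.87), the antisense RNA 0610005C13Rik (-5.11 ± 0.97), Gm48199 (-5.10 ± 0.72) and the serpin Serpina3j (-5.04 ± 1.05) also fell, Serpina3j from 396, 19.6 and 82.4 to 2.8, 0.86 and 1.68. Reads of Acot3 and Serpina3j that matched near-identical family members equally were left out by the same alignment setting. The assembled loci XLOC_019210 (-4.41 ± 0.65) and XLOC_032925 (-4.31 ± 0.78) fell by similar amounts, and XLOC_047290 had 97 reads in the LF males against 1 in the HF males, a ratio of 125 (exact 95% counting interval 21.9 to 4984, again counting error only). Apart from Irf4, the genes of this paragraph passed the filter only through the LF males, as did Apoa1 below. Their p-values are not read as support either.

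In numbers of reads the response looked different. The largest gains of mean reads within the wider set were in Sparc (osteonectin, a matrix protein), from 17451 ± 4529.8 (SD) to 60948 ± 3692, Hp (haptoglobin) from 7651 ± 1657 to 50110.2 ± 25981, Cav1 from 11832 ± 2196 to 38125 ± 2009, Npr3 from 1704 ± 597 to 19039 ± 1499 and Cavin1 from 12217 ± 3465 to 29259 ± 2358. Cav1 and Cavin1 build caveolae, the membrane pits that cover adipocytes. The largest losses within the wider set were in Cfd (adipsin), with 302517, 168533 and 221400.0 normalised reads in the LF males and 56079, 49646 and 35164 in the HF males, and in Cyp2e1, a cytochrome P450 abundant in adipocytes, with 148680.0, 93291 and 119474 against 35548, 29909.6 and 22551. Glul (glutamine synthetase) fell from 42366 ± 8104 to 12226 ± 1629.8 and Gpx3 (the secreted glutathione peroxidase) from 23968 ± 2157 to 9559 ± 2079.

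The list of genes known to follow fat expansion, drawn up with earlier results of these data known, moved almost as a whole: 9 of 10 rose, 2 of them called at 0.01, and the median log2 fold change was 2.70 against 0.01 over all genes. Lep, which encodes leptin, had 116, 447 and 630.1 normalised reads in the LF males and 15646, 14295 and 15773 in the HF males (5.57 ± 0.60, adjusted p = 0.0146). Mest, an imprinted protein of the endoplasmic reticulum and lipid droplets that marks expanding fat, had 80.5, 130.2 and 1000.2 against 9327, 6717 and 9165 (5.24 ± 0.89, adjusted p = 0.0318), and Sfrp5, a secreted Wnt inhibitor, 58.8, 246 and 277 against 6413, 5592 and 4175 (5.05 ± 0.59, adjusted p = 0.0166). The HF males were close to one another in these genes, while the LF males ranged more widely, with mouse 2078 the lowest in each.

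Trp53inp2 (1.76), Cav1 (1.70), Cav2 (1.33) and the imprinted Nnat (1.95) rose by less, and Peg3 alone was lower, with a difference of -0.73 ± 0.23 (adjusted p = 0.111). The promoter of Lep is shown because Lep was among the largest rises at a high level and has the letters of a C/EBP-type site near its start: the window is chr6:29059971-29060220 on the plus strand (RefSeq, GRCm38.p6), and capitals mark TTGCNNAA on either strand.
Lep: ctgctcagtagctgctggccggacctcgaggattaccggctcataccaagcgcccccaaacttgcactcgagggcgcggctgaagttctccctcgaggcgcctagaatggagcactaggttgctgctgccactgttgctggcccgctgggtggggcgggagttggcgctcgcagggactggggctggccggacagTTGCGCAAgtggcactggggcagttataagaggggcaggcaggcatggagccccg
The match starts 55 bases before the gene. TTGCNNAA was found in 9.55% of all promoter windows, 7.72% of those of genes tested, 10.8% of the 332 of genes that rose and 5.04% of the 258 of genes that fell.

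The adipocyte identity genes did not follow this rise. Of 20, 17 were lower in HF and 2 fell, with a median of -0.37. Klf15, a transcription factor of adipocyte metabolism, fell from 1579, 2429 and 1589 to 564, 492 and 537 (-1.78 ± 0.20, adjusted p = 0.0151), and Cfd fell by 2.28 ± 0.46 (adjusted p = 0.0458). Pparg, the master regulator of the adipocyte, had 4464, 3506 and 4943 normalised reads in the LF males and 2664, 2750.3 and 2462 in the HF males and just missed the threshold (-0.70 ± 0.16, adjusted p = 0.0615), and Adipoq differed by 0.15 ± 0.34 (adjusted p = 0.831). Of 17 genes tested on the adipokine list, 3 rose and 2 fell. Inhbb, a subunit of activin B, rose by 1.75 ± 0.16 and Apln (apelin) by 2.48 ± 0.46. The third was Cish, a list member that encodes an intracellular protein and not a secreted one. Nampt fell by 1.26 ± 0.15 along with Cfd.

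In de novo lipogenesis 16 of 22 genes were lower (median -0.68), 2 fell and 1 rose, beside 2.28% and 2.99% of all genes tested. Acacb, the acetyl-CoA carboxylase whose product restrains fatty acid entry into mitochondria, fell from 13449, 10626 and 15204 to 3354, 3137 and 3192 (-2.00 ± 0.17, adjusted p = 0.0105), Fads1, a desaturase of polyunsaturated fatty acids, fell by 0.88 ± 0.17, and the desaturase Scd2 rose from 794, 458 and 909 to 3109, 2503.4 and 3124 (2.07 ± 0.27, adjusted p = 0.0208). Fasn, fatty acid synthase, had 81009.5, 10834 and 90656 normalised reads in the LF males and 16062, 13556 and 12091 in the HF males (-1.64 ± 0.82, adjusted p = 0.265): LF mouse 2310, the library with most muscle mRNA, lay below the HF males, and the other 2 LF mice lay far above them. Scd1, the most abundant of these genes, had 1456300.0, 578298 and 1485130.0 against 682800.0, 821690.0 and 495484 (-0.72 ± 1.34, adjusted p = 0.784), with the same LF mouse inside the range of the HF males.

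Of 23 cholesterol synthesis genes 17 were higher and 0 rose (median 0.31). Fdft1, squalene synthase, fell by 1.19 ± 0.24 (adjusted p = 0.0446), while Stard4 (0.78 ± 0.19) and Mvk (0.98 ± 0.24) did not pass. In lipolysis and the lipid droplet 2 of 16 fell (median -0.24): Abhd5, the coactivator of adipose triglyceride lipase, fell by 1.26 ± 0.13 (adjusted p = 0.0137) and Fitm2, a droplet-forming protein, fell by 0.76 ± 0.16, while Plin3 differed by 0.53 ± 0.12 (adjusted p = 0.0597). In fatty acid uptake and triglyceride synthesis 1 of 25 fell (median -0.12). This was Lpin1, a phosphatidate phosphatase, with 10411, 14661 and 15636 against 4739, 4187 and 4482 (-1.58 ± 0.20, adjusted p = 0.0183). Slc27a1, a fatty acid transporter, differed by -1.33 ± 0.30 and Gpat4 by -0.81 ± 0.21 without passing.

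The genes of the respiratory chain were lower together by a modest amount. Of 47, 46 were lower in HF, 9 fell and 35 had groups that did not overlap, against 33.4% of all genes, with a median of -0.61. Ndufa6, a subunit of complex I, fell from 3445, 2956 and 2335 to 1521, 1475 and 1411 normalised reads, and its change on the log2 scale was -0.97 ± 0.17. Ndufs4 fell by 0.73 ± 0.13. Cox6c, Cox7b, Ndufa4, Ndufc2, Ndufv2 and Uqcrb were also among those that fell. With the muscle covariate the median was -0.60.

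In fatty acid oxidation 22 of 26 genes were lower (median -0.45), 1 fell and 1 rose. Acot2, a mitochondrial thioesterase, fell by 1.03 ± 0.20, and Cpt1a, the carnitine acyltransferase that admits fatty acids to mitochondria, rose from 454, 975 and 669 to 1582, 2129 and 1623 (1.40 ± 0.29, adjusted p = 0.049). Ppargc1a, the coactivator that drives mitochondrial genes, had 399, 1033 and 226 against 93.4, 73.1 and 151 (-2.16 ± 0.58, adjusted p = 0.0807). Of 18 thermogenic genes 14 were lower (median -0.82) and 1 fell, the potassium channel Kcnk3 (-1.49 ± 0.20), and Cox8b differed by -1.14 ± 0.33. Ucp1, the uncoupling protein of brown and beige adipocytes, was high in 2 mice of each group and near 0 in LF mouse 2310 and HF mouse 2298 (1413, 2.31 and 546 against 0.934, 976 and 677), so its log2 difference of -0.33 ± 3.16 has no firm sign.

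Insulin signalling genes were lower in 17 of 21 (median -0.32). Insr, the insulin receptor, fell from 4012, 3932 and 4470.3 to 2461, 2623 and 2439 (-0.72 ± 0.12, adjusted p = 0.0302), and Foxo1 (-0.52 ± 0.12) and Pde3b (-1.10 ± 0.26), the phosphodiesterase through which insulin restrains lipolysis, did not pass. Of 16 hormone and monoamine receptors tested, 1 rose (Npr3) and 2 fell, Drd1 among them. Among 14 LXR targets and apolipoproteins 12 were lower (median -0.38) and 2 fell, Apoc3 and its neighbour Apoa1 (23, 19.6 and 38.7 against 5.6, 2.58 and 4.21, -2.44 ± 0.45), and Apoc4 differed by -2.11 ± 0.50 (adjusted p = 0.0649).

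Macrophage genes were higher, with more spread. In the list of lipid-associated macrophages, the cells that ring dying adipocytes, 18 of 23 were higher, 5 rose and 0 fell (median 0.67). Mmp12, a macrophage elastase, had 8.95, 30 and 15.9 normalised reads in the LF males and 530.2, 438 and 1080.5 in the HF males (5.19 ± 0.52, adjusted p = 0.0137). Itgax, which encodes CD11c, had 51.1, 9.22 and 18.9 against 193, 164 and 337 (3.33 ± 0.62, adjusted p = 0.0393), and Lgals3 (galectin-3) 656, 1176 and 815 against 2169.5, 2369 and 3242 (1.58 ± 0.26). The other 2 were Atp6v0d2 (3.30) and Ctsk (1.13).

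Trem2, the lipid receptor that defines these cells, had 11.5, 96.8 and 14.9 against 53.2, 196 and 154 (2.14 ± 0.89, adjusted p = 0.196), and its groups overlapped, as LF mouse 2310 lay above HF mouse 2298. The same mouse overlapped the HF males in Cd68, a lysosomal macrophage marker (184, 574 and 297 against 548, 1135 and 603, 1.19 ± 0.47, adjusted p = 0.176), and in Adgre1, which encodes F4/80 (202, 612 and 250.1 against 573, 1707 and 820.4, 1.56 ± 0.54, adjusted p = 0.138). In the list of resident macrophages 22 of 24 were higher (median 0.87) and 0 rose. Cx3cr1 differed by 1.77 ± 0.51, Retnla by 1.13 ± 0.38 and Mertk, an efferocytosis receptor, by -0.45 ± 0.15. The list also holds Ccr2 and Ly6c2 of monocytes, so it does not set resident cells apart from recruited ones. The summed level of this list was 12090 to 24054 normalised reads in the LF males and 21350 to 46019 in the HF males.

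Genes that present antigen on MHC class II were higher in 13 of 13, and 5 rose (median 0.95): H2-Ab1, a chain of the I-A molecule, from 2343, 2040.1 and 2418 to 3591, 5315 and 4876 (1.00 ± 0.18, adjusted p = 0.0366), the peptide loaders H2-DMb1 (1.34 ± 0.22) and H2-DMa (1.23 ± 0.22), Cd74, and the class II regulator Ciita. T lymphocyte genes gave 0 past the threshold of 18 (median -0.16), with Il7r at 1.19 ± 0.29, Gzma at 0.74 ± 0.43 and Cd3d at -1.13 ± 0.74. B lymphocyte genes gave 0 of 17 (median 0.06), with Ighm at 1.94 ± 0.55, Tnfrsf13b at 1.01 ± 0.43 and Bank1 at 0.75 ± 0.55; Ighm had 3727, 1474 and 795 against 5323, 8424 and 5469.6 normalised reads.

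Inflammatory mediators moved in few genes. Of 19 tested 15 were higher (median 0.60); Il1rn, the interleukin-1 receptor antagonist, rose from 1.28, 8.07 and 2.98 to 37.3, 45.6 and 90.9 (3.65 ± 0.63, adjusted p = 0.0318), Il6ra, the interleukin-6 receptor, fell from 1773, 2290.2 and 2545 to 850.5, 1266 and 939 (-1.12 ± 0.21, adjusted p = 0.039), and Selp (P-selectin) differed by 0.95 ± 0.24. Tnf and Il6 did not reach the filter: Tnf had 8.95, 1.15 and 5.95 normalised reads in the LF males and 9.34, 1.72 and 8.41 in the HF males, and Il6 had 1.28, 5.76 and 1.98 and 3.73, 4.3 and 4.21. Of 25 chemokines and receptors 19 were higher (median 0.86) and 1 rose, the monocyte chemoattractant Ccl7, from 15.3, 35.7 and 16.9 to 98, 146 and 139.7 (2.53 ± 0.39, adjusted p = 0.0259).

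Ccl2, the chemokine beside Ccl7, had 14.1, 41.5 and 23.8 against 51.3, 73.1 and 101 (1.55 ± 0.46, adjusted p = 0.103), and Ccl24 (0.96 ± 0.21) and Cxcl12 (0.86 ± 0.23) did not pass. Cxcl13, which draws B cells, was lower, with 303, 365 and 282 against 51.3, 199 and 29.5 (-2.21 ± 0.66, adjusted p = 0.102). In the acute phase list 3 of 13 rose and 1 fell (median 0.84). Lbp, which binds bacterial lipopolysaccharide, rose from 148, 369 and 359 to 3719, 3865 and 3716 (3.80 ± 0.36, adjusted p = 0.011), Hp rose by 2.60 ± 0.41 with HF mouse 2308 highest (28030.4, 78739 and 43561), Steap4 rose by 1.26, and Cp (ceruloplasmin) fell by 1.52 ± 0.23. Saa3, serum amyloid A of fat, ranged widely in both groups (6.39, 148 and 95.3 against 175, 1628 and 788, 3.69 ± 1.31, adjusted p = 0.146).

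Of 20 complement genes Cfd alone passed (median 0.65), with Cr1l at 0.42 ± 0.15 and C6 at 1.47 ± 0.55. In the interferon list 26 of 29 were higher by a small amount (median 0.43) and 2 rose, the RNA sensor Ddx58 (0.76 ± 0.13) and Bst2 (0.71 ± 0.12), while Stat2 differed by 0.56 ± 0.13. The NF-kB list had 1 of 18 past the threshold, Nfkbia, the inhibitor that NF-kB induces, which fell from 1193, 1259 and 2007 to 642, 664 and 733 (-1.09 ± 0.22, adjusted p = 0.0454); Tnfaip2 (1.00 ± 0.25) and Tnfaip3 (0.78 ± 0.25) did not pass. Of 24 genes of p38 and the MAPK phosphatases, Dusp9, a phosphatase of the ERK and p38 kinases, rose from 2.56, 6.92 and 13.9 to 107, 60.2 and 85 (3.47 ± 0.57, adjusted p = 0.0302), and Mapk11 (0.98 ± 0.31) and Dusp2 (-1.30 ± 0.43) did not. Of 9 neutrophil and mast cell genes 4 were higher and 5 lower (median -0.04), and 1 rose. This was S100a8, a calcium-binding protein of neutrophils, at a low level, from 8.95, 13.8 and 12.9 to 44.8, 38.7 and 63.1 (1.94 ± 0.34). S100a9 of the same list differed by -0.31 (adjusted p = 0.872), Elane by -0.97 ± 0.37 and Csf3r by 1.17 ± 0.49. Blood genes gave 0 of 9 (median -0.98), with Alas2 at -1.15 ± 0.40, Slc4a1 at -1.89 ± 0.69 and Pf4 at 0.86 ± 0.32.

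Collagen genes were higher in the HF males. Of 24 collagen genes 22 were higher, 10 rose and 0 fell, with a median of 1.74. Col15a1, a basement membrane collagen around adipocytes, had 596, 429 and 1016 normalised reads in the LF males and 6665, 5219 and 5495 in the HF males (3.17 ± 0.32, adjusted p = 0.0137), Col12a1 90.8, 80.7 and 79.4 against 295, 364 and 285 (1.89 ± 0.18) and Col5a1 968, 979.7 and 1416 against 3553, 4350.5 and 3234 (1.74 ± 0.20). The other 7 that rose were Col18a1, Col4a1, Col5a2, the 3 chains of collagen VI (Col6a1, Col6a2 and Col6a3) and Col8a1. The fibrillar chains Col1a1 (669.9, 2519.6 and 1439.8 against 3422, 9539.7 and 4256, adjusted p = 0.0992) and Col3a1 (3770.1, 11781 and 6058 against 15776, 44871 and 16188, adjusted p = 0.112), named after their values were seen, spread more within each group and did not pass.

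In matrix remodelling 28 of 32 were higher (median 0.76) and 2 rose: Sparc, from 13496, 16464 and 22393 to 63220.2, 62935 and 56688 (1.83 ± 0.28, adjusted p = 0.0256), and Wisp2, a secreted protein of precursor cells, from 23, 41.5 and 33.7 to 157, 521 and 504 (3.40 ± 0.52). Loxl2, a collagen cross-linking enzyme, just missed (1.40 ± 0.29, adjusted p = 0.0504). Stromal progenitor genes were higher in 18 of 19 (median 0.58) and 2 rose, Fap (1.00 ± 0.15) and Thy1 (1.37 ± 0.25), with Zfp423 at 0.75 ± 0.22. In smooth muscle genes Acta2, the actin of smooth muscle and myofibroblasts, rose from 203, 408 and 751 to 3706, 2605 and 2885 (2.93 ± 0.46, adjusted p = 0.0268), 1 of 8 tested, while Synpo2 (3.40 ± 0.77) and Tagln (0.74 ± 0.30) did not pass. Of 21 endothelial genes 18 were higher (median 0.50) and Apln rose; its receptor Aplnr had 271, 43.8 and 141 against 621, 507 and 947 (2.48 ± 0.65, adjusted p = 0.0778), and Vwf differed by 0.68 ± 0.21.

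Genes of cell division were higher in 27 of 30 at low levels; 7 rose and 1 fell, and the median was 1.21. Aurkb, a mitotic kinase, had 15.3, 13.8 and 12.9 normalised reads in the LF males and 43.9, 74.8 and 54.7 in the HF males (1.94 ± 0.31, adjusted p = 0.0284), Ccna2 (cyclin A) 43.5, 51.9 and 40.7 against 96.2, 152 and 171 (1.57 ± 0.28) and Cdk1 48.6, 30 and 47.6 against 99, 152 and 152 (1.66 ± 0.30). Bub1, Cdc20, Mcm6 and Top2a also rose, and Mcm7, a replication helicase subunit, fell.

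In the circadian clock list 3 of 19 fell and 0 rose (median -0.29). Per1 and Nfil3 (-1.54 ± 0.25) were among them. The promoter of Per1 is shown because Per1 was called and is a textbook target of the clock's activators, which bind the E-box CACGTG: the window is chr11:69098699-69098948 on the plus strand (RefSeq, GRCm38.p6), and capitals mark CACGTG, which reads the same on both strands.
Per1: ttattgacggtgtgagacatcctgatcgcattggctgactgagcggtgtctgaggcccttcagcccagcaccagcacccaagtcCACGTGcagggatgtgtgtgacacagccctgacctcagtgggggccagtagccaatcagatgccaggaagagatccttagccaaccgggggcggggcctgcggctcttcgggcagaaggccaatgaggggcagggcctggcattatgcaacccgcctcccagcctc
The E-box starts 166 bases before this start, and a second RefSeq start of Per1 has no such letters in its window. CACGTG was found in 6.05% of all promoter windows, 8.34% of those of genes tested, 11.2% of the 258 of genes that fell and 8.13% of the 332 of genes that rose. All mice had fasted overnight, and the hour of death of each was not given in the sources used here. Of 23 NRF2 and glutathione genes, Sod3, the extracellular superoxide dismutase, rose from 2138, 2616 and 3681 to 9358, 10529.9 and 7524 (1.72 ± 0.24, adjusted p = 0.0224), Gpx3 fell by 1.35 ± 0.23, and Gsr differed by -0.52 ± 0.11. The hypoxia list was split, with a median of -0.07: Adm (adrenomedullin) rose by 1.36 ± 0.22, while Bnip3, a mitophagy receptor, fell from 21519.6, 20930.2 and 21834 to 9425, 8796 and 9007 (-1.24 ± 0.16, adjusted p = 0.019) and the HIF hydroxylase Egln3 fell by 2.76 ± 0.40.

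The vitamin D list gave 0 of 9 past the threshold (median 0.28). Vdr, the vitamin D receptor, was low, with 3.84, 54.2 and 5.95 against 4.67, 30.1 and 17.7 normalised reads (0.28 ± 1.09, adjusted p = 0.908), its 3 most significant members were Rxrb (-0.52 ± 0.14), Cubn (2.49 ± 0.69) and Pdia3 (0.49 ± 0.18), and Cubn was at 18.5 normalised reads or less in each mouse. The aryl hydrocarbon receptor list gave 0 of 5 (Arnt -0.34 ± 0.12, Ahr -0.26 ± 0.18, Tiparp -0.16 ± 0.18). Of 18 stress genes Asns, asparagine synthetase, fell from 2480.1, 1365 and 2609 to 888, 708 and 754 (-1.41 ± 0.27, adjusted p = 0.0405), and Atf4 (-0.84 ± 0.18, adjusted p = 0.051), which drives Asns, and Herpud1 (-0.65 ± 0.16) did not pass.

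**Figure D4:**
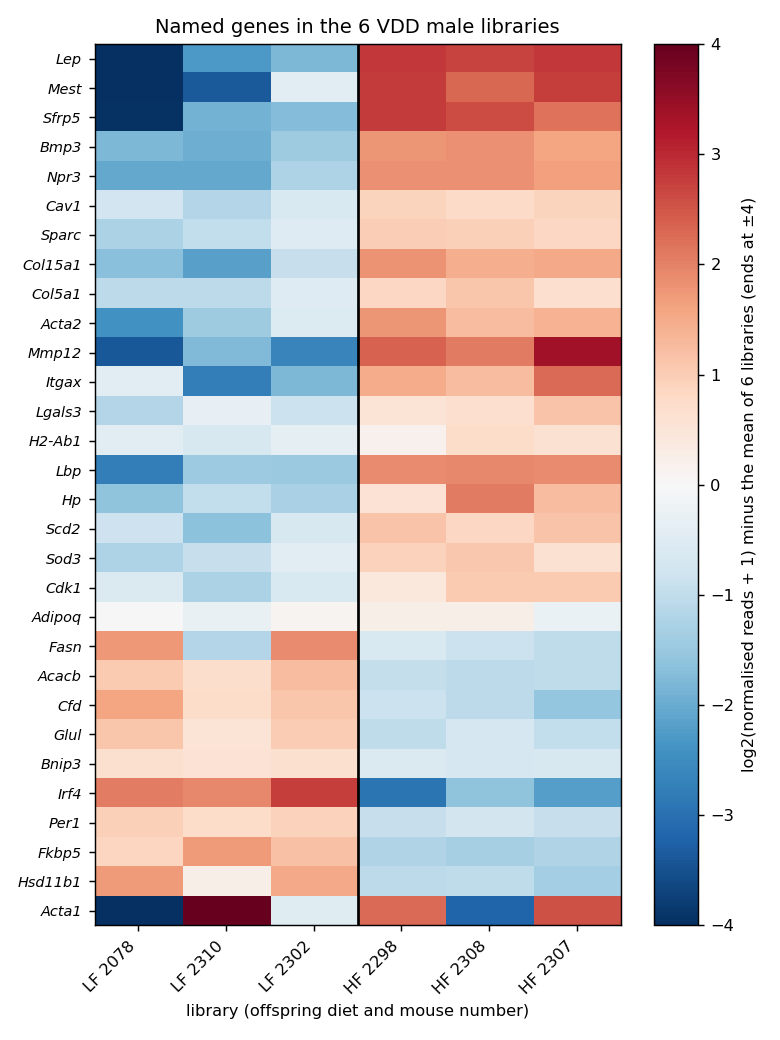
Log2(normalised reads + 1) of 30 genes named in the text, each minus its mean over the 6 libraries, for the LF mice on the left of the line and the HF mice on the right; the colour scale ends at 4 on either side. Lep to Cdk1 are above their mean in the 3 HF mice and below it in the LF mice, Adipoq hardly varies, Fasn is low in LF mouse 2310, and Acta1 follows the muscle content of the library.

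Some genes past the wider threshold lay close together. Of the 445 genes that rose and have a position in GENCODE M21, 64 (14.4%) had another gene that rose with its start within 100 kb, against 7.27% of all 14935 genes with a position. Of 336 genes that fell, 76 (22.6%) had a neighbour that fell, against 6.51%. These shares were not tested, and genes that share a start region, an antisense partner or near-identical sequence are among them and were not set apart. The pairs, named after their values were seen, included Cav1 and Cav2 (25150 bases between starts), Itgad and Itgax (24829), H2-DMa and H2-DMb1 (33531), S100a6 and S100a8 (56096), and Sfrp5 with Golga7b (45322) among those that rose, and Apoa1 and Apoc3 (7056), Acot2, Acot3 and Acot4 (13765 between the last 2), and Klf15 with the noncoding Gm44117 (1108) among those that fell.

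In CTRL males, the sons of mothers with vitamin D3 on the same 2 diets and a separate set of 6 libraries, 182 of 15583 genes passed the wider threshold (1.17%) and 9 the stricter one. Of the 456 VDD genes up that were tested there, 444 were also higher in CTRL HF males and 61 passed, and of 348 down 347 were lower and 36 passed. The median log2 fold change of these genes was 1.57 in VDD and 0.76 in CTRL males for those up, and -1.16 and -0.72 for those down; the genes were chosen on the VDD values, which favours the larger VDD medians. Over all 15237 genes tested in both, 77.7% had the same sign and the log2 fold changes correlated with r = 0.73, across genes that share libraries within each response.

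The difference between the 2 responses was tested as an interaction over the 12 male libraries, and 0 of 16867 genes passed the wider threshold (0%) with limma, where 654 had an unadjusted p under 0.05 and limma-voom also gave 0. These 654 are fewer than that limit gives on average where nothing differs. Without VDD LF mouse 2302 the limma interaction gave 3 genes past the wider threshold, and without any other single mouse 0. The smallest p-values belonged to the assembled locus XLOC_023168, Lep, Gucd1, Bmp3 and Prr32. XLOC_023168 had 1.28, 1.15 and 1.98 normalised reads in the VDD LF males and 30.8, 26.7 and 34.5 in the VDD HF males, a rise of 3.69 ± 0.38 against 0.42 in CTRL males (interaction 3.26 ± 0.51, adjusted p = 0.372). Lep differed by 5.57 between diets in VDD males and 0.96 in CTRL males (interaction 4.60 ± 0.73, adjusted p = 0.372), Gucd1 by -2.00 and -0.69 (-1.32 ± 0.22), Bmp3 by 3.44 and 1.27 (2.17 ± 0.37) and Prr32 by 5.60 and 0.98 (4.60 ± 0.84, adjusted p = 0.495). In each of these the VDD value was the larger in size, and none of the differences held after adjustment. Among lists, the fat expansion median was 2.70 in VDD and 0.99 in CTRL males, the collagen median 1.74 and 1.08, and the respiratory chain median -0.61 and -0.45. Other lists had the median of larger size in CTRL males, among them fatty acid uptake (-0.12 in VDD and -0.52 in CTRL males), fatty acid oxidation (-0.45 and -0.55), adipocyte identity (-0.37 and -0.44), interferon response (0.43 and 0.56) and smooth muscle (0.48 and 1.02). These differences between medians were not tested.

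**Figure D5:**
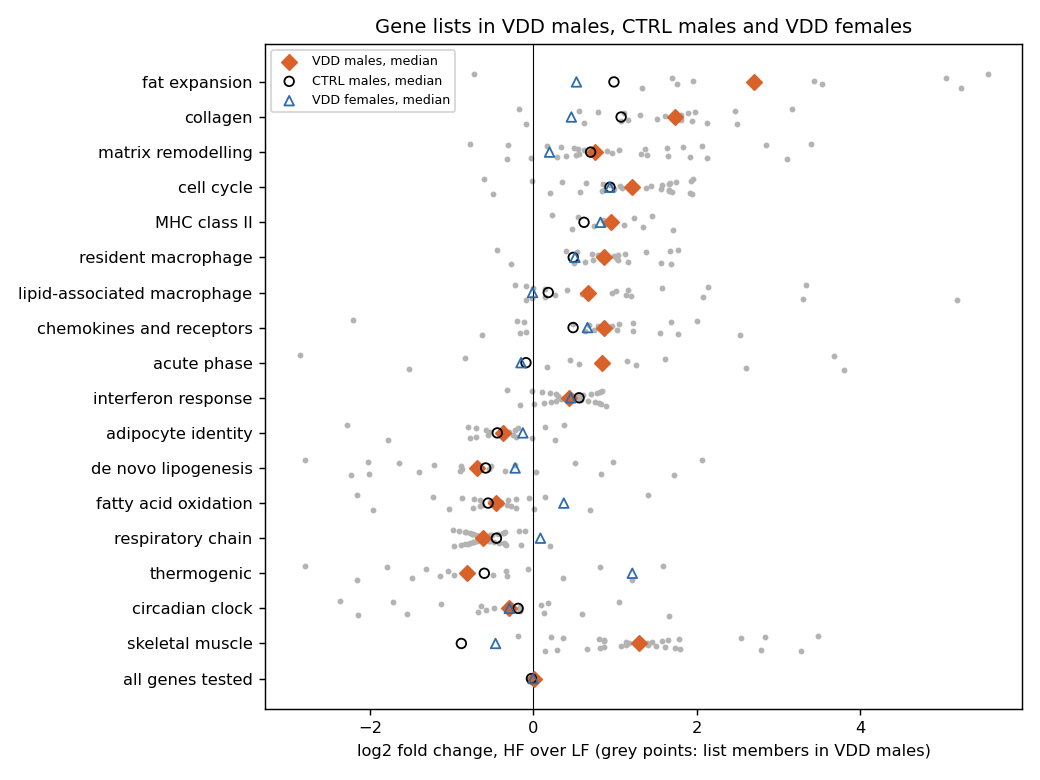
Median log2 fold change (HF over LF) of 17 gene lists and of all genes tested, in VDD males (filled diamonds), CTRL males (open circles) and VDD females (open triangles); grey points are the list members in VDD males. Fat expansion and collagen lie furthest to the right in VDD males (2.70 and 1.74), respiratory chain, fatty acid oxidation and thermogenic medians are below 0 in both male responses and above 0 in VDD females, and the skeletal muscle median is above 0 in VDD males (1.30) and below it in the other 2 comparisons.

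In VDD females, again a separate set of 6 libraries, 0 of 15923 genes passed the wider threshold (0%) with limma, and 804 had an unadjusted p under 0.05. These 804 are about as many as that limit gives on average where nothing differs. Of the VDD male genes up, 348 of 416 tested in females were higher on HF there as well (median 0.34), and of those down 315 of 353 were lower (median -0.38). Over all 15096 genes tested in both sexes, 63.8% had the same sign. The log2 fold changes correlated with r = 0.38, across genes that share libraries within each response. Respiratory chain genes were higher in 31 of 47 in females (median 0.09) and lower in 46 of 47 in males. The sex by diet interaction passed the wider threshold in 9 of 17207 genes (0.0523%), in 0 with limma-voom, and in 0 to 38 when 1 mouse was left out (38 without VDD LF mouse 2310). Among the 5 with the smallest p, Bmp3 rose in VDD males and differed by 0.14 in VDD females, and Kyat3, a kynurenine aminotransferase, fell in males from 946, 717 and 773 to 308, 317 and 308 normalised reads and differed by 0.21 in females. Cdkl4 rose from 5.11, 5.76 and 5.95 to 69.1, 111 and 83.3 in males, Mup-ps21 had reads in the 3 HF males alone of these 12 libraries, and the assembled locus XLOC_001197 rose in males by 1.69 ± 0.17 against a difference of -0.14 in females. Mup-ps21 reached the filter only through the VDD HF males, and Cdkl4 lay near or below it in the other libraries.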

How the data were processed

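RNA-seq of whole retroperitoneal fat was used from 6 VDD males and, for comparison, from 6 CTRL males and 6 VDD females, 3 per group. The authors aligned the reads to mm10 with STAR 2.7.0d, added loci assembled with Cufflinks 2.2.1, counted with featureCounts 1.6.1 and normalised the counts. The deposited values are log2(normalised reads + 1), 1 table per comparison, each normalised separately. The deposited DESeq2 comparison columns (fold changes and p-values) were not used.

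Of the values of the VDD males, 100% correspond to whole reads within 0.02 reads, which gave the depth. Of 56899 entries, 4 with a duplicated date-like name were left out. Among all entries, 2470 were loci that came from the authors' assembly. Genes with at least 10 normalised reads in 3 libraries were tested with limma 3.58.1 in R 4.3.3 (trend of the variance, 4 residual degrees of freedom, two-sided, Benjamini-Hochberg adjustment). Genes were called where the fold was over 1.5 or under 0.66 with an adjusted p below 0.01, and the wider set has the same fold with an adjusted p below 0.05. The 2 interactions were fitted over 12 libraries after the recovered reads of both tables had been rescaled together by the median of ratios. The plain limma fit over 6 libraries was tested on simulated data. The interaction, voom and covariate fits were not. Positions come from GENCODE M21 (GRCm38) and promoters from RefSeq (GRCm38.p6), which can differ from the authors' annotation.

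Genes named were the called genes, the 10 largest log2 changes and 5 largest changes in reads in each direction of the wider set, the 3 with the smallest p in each of 44 lists (fewer where fewer were tested), the 5 smallest p of each interaction, and chosen markers. Members and lists were chosen with earlier results of these data known, and no list was tested as a set. Alternatives covered voom, array weights, normalisation, pseudocount, filters, muscle as a covariate, a fit over 12 males, and each mouse left out. The p-values measure the spread between 3 mice per group, whose litters are not known. Results for a few genes that these rules name are not reported here.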

Additional observations from a re-analysis of the deposited data

Results flagged for a closer look

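The response to the HF diet differed between VDD males and VDD females in 9 genes, tested as an interaction over 12 libraries with limma (adjusted p under 0.05 with the fold, 0 at 0.01). Mup-ps21 and Gm43069 reached the filter only through the VDD HF males, so their p-values and place in this count are not read as support. Cdkl4 was at 10.4 normalised reads or less in the other libraries, near or below the filter, and carries the same limit. Values are the male minus the female log2 fold change ± SE. Female values are given for the LF and then the HF mice in normalised reads of their own table, so levels are not compared between the sexes.

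Bmp3 differed most clearly, by 3.30 ± 0.34 (adjusted p = 0.0194). VDD females had 310.1, 468 and 335 on LF and 416, 542 and 289 on HF. Adamts5 differed by 1.95 ± 0.28 (adjusted p = 0.0488), with 926, 839 and 890.1 and 1474, 802 and 1138 in females. 1700047G03Rik differed by 5.32 ± 0.74 (adjusted p = 0.0488), and females had 36.3, 6.51 and 12.6 against 32.5, 16.5 and 28.4. In these 3 genes, all called in males, the female groups overlapped.

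Kyat3 differed by -1.58 ± 0.20 (adjusted p = 0.0401), with 583, 628 and 478 against 649, 653 and 644 in females. Lncbate1 was lower on HF in both sexes and differed by -2.05 ± 0.29 (adjusted p = 0.0488), with 236, 349 and 248 against 166, 163 and 225 in females. Cdkl4 differed by 3.79 ± 0.49 (adjusted p = 0.0401), with 9.36, 6.51 and 8.88 against 6.02, 7.33 and 10.4 in females. The assembled locus XLOC_001197 differed by 1.83 ± 0.25 (adjusted p = 0.0488), with 132, 99.8 and 103 against 97.5, 111 and 94.5.

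Mup-ps21 (fitted difference 5.57, adjusted p = 0.0401) had 0 reads in the 9 other libraries, and Gm43069 (5.08, adjusted p = 0.049) had 0 reads in 8 of them. Against 3 reads in each LF male library the HF males were at least 14.5-fold and at least 8.16-fold higher, and the fitted values are no bound. With the muscle covariate Bmp3 alone stayed past 0.05 (adjusted p = 0.0417), and with limma-voom none of the 9 did (adjusted p 0.0584 to 0.102). Of the 12 fits that left out a mouse, Bmp3 passed in 8 and each of the others in 1 or 2.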

How the results depend on the processing

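The count of 12 genes called in VDD males moved by over 1.5 times under many alternatives: 0 with limma-voom, 1 with the muscle covariate, 37 without a filter, 47 with log2(normalised reads + 10), 614 in a fit over 12 males, 1643 at an unadjusted p under 0.01 with the fold, and 2677 with array weights. The word renal as a covariate, chosen after seeing the data, gave 0. Leaving out 1 mouse gave 0 to 264. The count of 842 went to 119 with the renal covariate, 1802 over 12 males and 4331 with array weights, and leaving out 1 mouse gave 0 to 2535. Array weights were 0.162 for mouse 2310 and 5.07 for 2302. Leaving out a mouse also removes a degree of freedom, and the cause of the other changes was not tested. The maternal interaction stayed at 0 calls at 0.01 in each fit. The sex interaction, 0 at 0.01, gave 9 with log2(normalised reads + 10) and 0 to 2 with 1 mouse left out.

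Of 2699 log2 fold changes of 186 named genes under alternatives, 14 changed sign, none of them in a gene of the wider set. In genes of the wider set leaving out a mouse could not change the sign, since their groups did not overlap. Ucp1 was 0.59 with the muscle covariate. With 1 mouse left out, Ucp1 ran from -3.02 to 2.57 (above 0 without 2078, 2302 or 2298), Krt8 from -0.30 to 2.91, Acta1 from -1.36 to 3.49, Ckm from -2.85 to 5.21 and Myh4 from -2.55 to 6.53 (each below 0 without 2078 alone), Vdr from -0.40 to 0.97 (3 fits, below 0 without 2078 or 2302), Star from -1.08 to 0.36 (above 0 without 2310 or 2298) and Nr3c1 from -0.047 to 0.15 (below 0 without 2302 or 2308). No paired analysis was possible because the deposited columns carry mouse numbers and not the replicate numbers of the labels.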

Other observations

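A list of genes that glucocorticoids are known to induce, together with the gene of their receptor, Nr3c1, was looked at late. Per1, Klf15, Glul and Nfkbia had been seen to fall before, so the list was chosen on these values and is described only. Of 20 genes, 18 were lower on HF in VDD males and 10 fell, with a median log2 fold change of -1.23. Fkbp5, a co-chaperone of the glucocorticoid receptor, had 2603, 4632 and 3257 normalised reads in the LF males and 629, 565 and 625 in the HF males (-2.49 ± 0.22, adjusted p = 0.0105). Hsd11b1, the enzyme that makes active glucocorticoid within fat, had 6729.6, 2437 and 5885 against 999.8, 1028 and 801 (-2.29 ± 0.39, adjusted p = 0.0318). Sgk1 (-1.34 ± 0.23), Ddit4 (-2.04 ± 0.38) and Mt1 (-1.14 ± 0.16) were among the others that fell, beside Lpin1.

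Several genes of this kind did not pass. Tsc22d3 differed by -0.96 ± 0.54 (adjusted p = 0.316), Zbtb16 by -0.90 ± 0.35, Mt2 by -0.41 ± 0.38, Klf9 by -0.75 ± 0.33, Dusp1 by -0.40 ± 0.31, Pdk4 by -0.87 ± 0.41 and Cebpd by -1.33 ± 0.55. Angptl4 differed by 0.52 ± 0.24 and Errfi1 by -1.54 ± 0.43. Nr3c1, the glucocorticoid receptor itself, had 2570.9, 2684 and 2114 against 2357, 3100.5 and 2373 (0.08 ± 0.17, adjusted p = 0.806), with no firm sign. The median of the list was -0.96 in CTRL males, where 19 of 20 were lower, and -0.66 in VDD females, where 17 of 20 were lower. Hormone levels and the hour of death are not among the data used here.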
